A study of Homo sapiens with 3 samples.

Results

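The endoplasmic reticulum (ER) unfolded protein response was followed as a set of 35 genes, out of 19699 genes that could be named on the arrays, in PANC-1 cells treated with cantharidin (CAN) or okadaic acid (OA). The members were chosen by what they do: the 3 ER stress sensors with the transcription factor XBP1, ER chaperones and lectins, disulphide oxidoreductases, ER-associated degradation (ERAD) factors, secreted ER stress proteins, and parts of protein translocation and vesicle export. They were measured by 44 probes, with 27 members on 1 probe, 7 on 2 probes and SEL1L on 3 probes. The rule for choosing them names no measured value, but earlier results of these data were known when they were chosen.

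PANC-1 is an established human line from an epithelioid carcinoma of the pancreatic duct. The study compared untreated control cells with cells given 20 µM cantharidin and, separately, 20 µM okadaic acid for 24 h, doses that are given here as the sample labels state them and that no other source used here gives. Cantharidin, a terpenoid from blister beetles, and okadaic acid, a polyether toxin of marine dinoflagellates, are inhibitors of protein phosphatase 2A. Total RNA of each of the 3 groups was hybridised to 1 single-colour Agilent array, so there was no replicate, no test was possible, and every difference below is between 1 array and another.

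Secretory and membrane proteins fold in the ER with the help of chaperones, lectins and enzymes that form disulphide bonds. When unfolded proteins accumulate there, the sensors IRE1 (ERN1), PERK (EIF2AK3) and ATF6 are activated: IRE1 splices the mRNA of XBP1, PERK phosphorylates eIF2α and so favours translation of ATF4, and ATF6 is cut in the Golgi into a transcription factor. XBP1 and ATF6 then raise the transcription of chaperone and ERAD genes, and the pancreas, as a secretory organ, is known to rely on this response.

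All values are spot intensities brought to a common 75th percentile, in the units of the control array, and are called scaled intensity here. A level is compared only between arrays for the same probe, never between probes. A gene was counted as higher or lower when it differed by at least 1.5-fold, and only if either array of the comparison had its probe well above background. Between 67.8% and 73.7% of probes were well above background per array, and no spot was saturated. For 34 of the 35 members the representing probe was well above background on all 3 arrays, the exception being ERN1. The only error that could be measured was that of replicate spots within an array, with a median standard deviation (SD) of 0.073 to 0.101 on the log2 scale. For the members it came to an SD of 0.029 to 0.30 on the difference of CAN from control, and it leaves out the spread between cultures. All 5 epithelial and ductal markers (KRT7, KRT8, KRT18, KRT19 and EPCAM) were well above background on all arrays, but their levels moved in both directions. EPCAM was 3.42-fold lower with CAN and 2.20-fold lower with OA, KRT8 2.25-fold lower with CAN and KRT7 1.67-fold lower with OA. KRT18 was 1.99-fold higher with CAN and 2.29-fold higher with OA, and KRT19 was 2.59-fold higher with OA. Of 11 markers of blood, endothelial, fibroblast, endocrine and acinar cells, 7 were well above background on all arrays, and PECAM1, LUM and CPA1 were not on any. The summed scaled intensity of these 11 was 5555 in control, 6249 in CAN and 12645 in OA, of which CD68 alone made 2945, 4286 and 10666. COL1A1 in that list was at least 21.9-fold lower with CAN and at least 10.9-fold lower with OA, and DCN was 1.76-fold lower and PRSS1 2.49-fold higher with CAN. Whether that moved with any member was not tested.

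After cantharidin, 16 of the 35 members (45.7%) were higher than control and 5 (14.3%) were lower. Over all 16644 genes compared, 27.5% were higher and 34.1% lower. After okadaic acid, 15 members (42.9%) were higher and 7 (20%) lower, where 28.1% of all 16166 genes were higher and 28.8% lower. The median log2 difference from control over the members was 0.47 with CAN, beside -0.16 over all genes, and 0.26 with OA, beside 0.01 over all genes. So in both treatments the members' share of higher genes stood above that of all genes and their share of lower genes stood below it. Both comparisons use the same control array, so they are not independent of each other.

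**Figure D1:**
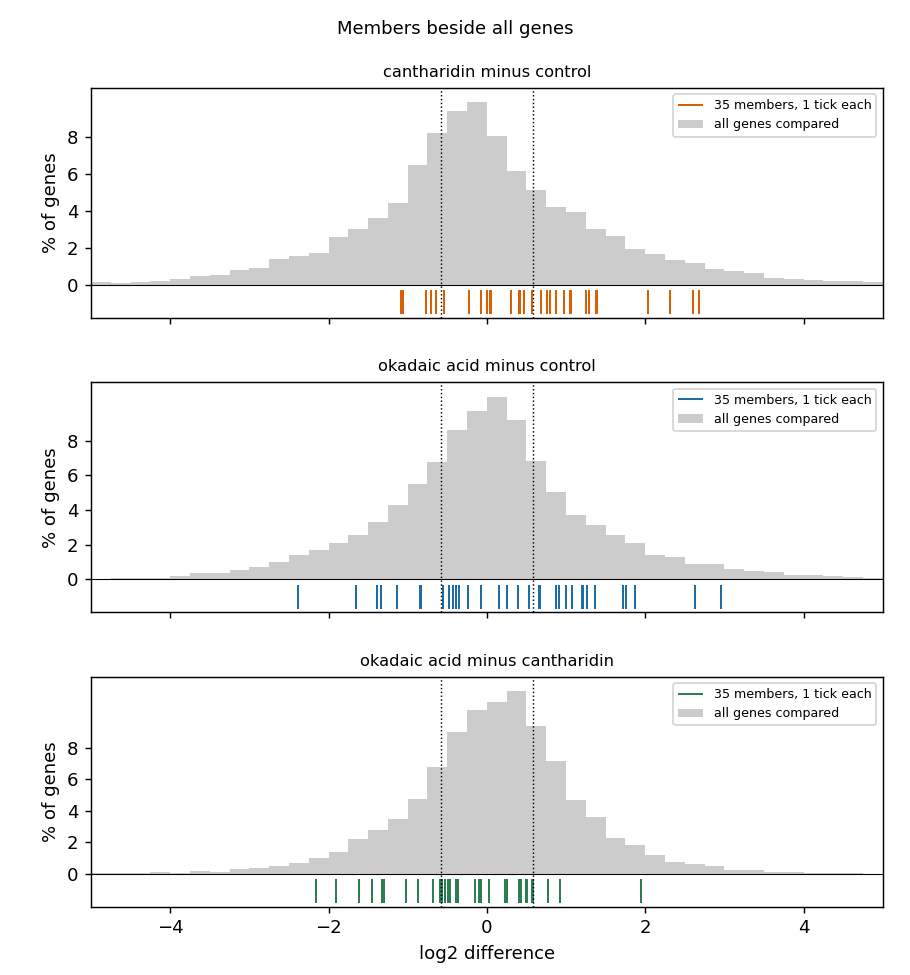
Distribution of the log2 difference of scaled intensity over all genes compared, with the 35 ER stress response members marked, for CAN against control, OA against control and OA against CAN (1 array per group; the x axis is cut at both ends). The members' median lies at 0.47, 0.26 and -0.38, beside -0.16, 0.01 and 0.13 for all genes.

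The members did not move as 1 block. With both agents 10 were higher: ATF6, EIF2AK3, HSPA5, DNAJB9, DNAJB11, DNAJC3, DERL2, SELENOK, SEC61B and SEC24D. With both, 4 were lower: PDIA5, TXNDC5, DNAJC10 and EDEM2. XBP1, ERO1A, SYVN1, CRELD2 and MANF were higher with CAN and within 1.5-fold of control with OA. The reverse, higher with OA and within 1.5-fold with CAN, held for HSP90B1, SDF2L1, ERO1B, HERPUD1 and SEL1L. PDIA4 alone was called in opposite directions. CANX and PDIA6 were lower with OA and not called with CAN, EDEM1 was lower with CAN and not called with OA, and CALR, PDIA3, HYOU1, ERN1, DERL1, DERL3 and OS9 were called with neither agent. The share of all genes with each of these combinations was not computed, so the counts only describe the members. A gene's calls with CAN and with OA also share the control array and are not independent.

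**Figure D2:**
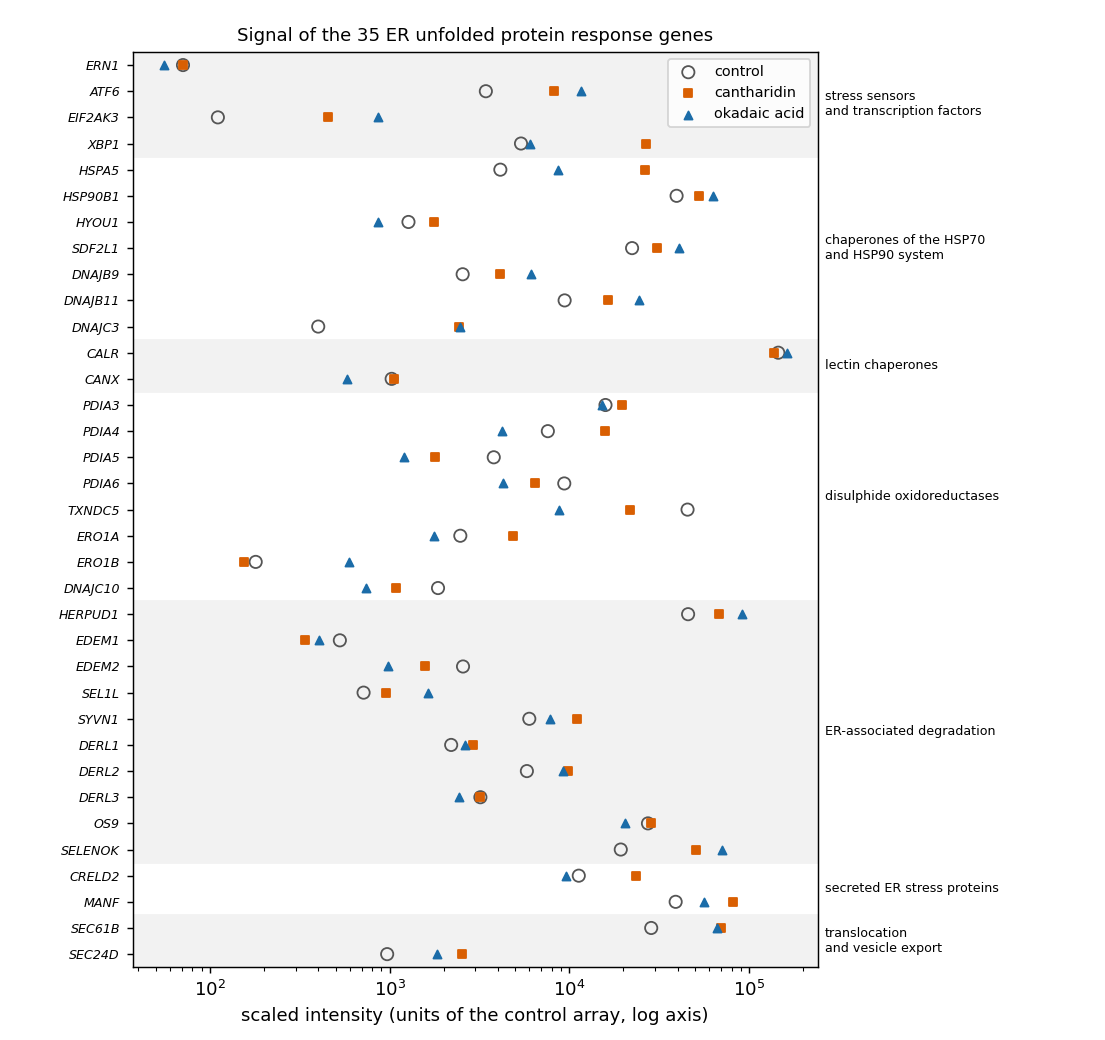
Scaled intensity of each of the 35 members on a log axis, with 1 point per array for control, CAN and OA, grouped by role (1 probe per gene, the brightest on average). HSPA5 goes from 4132 in control to 26515 in CAN and 8671 in OA, while TXNDC5 goes from 45481 to 21811 and 8710.3; levels of different genes are not comparable.

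Promoters of these genes are known for ER stress response elements, short sequences at which ATF6 and XBP1 act together with the CCAAT-binding factor NF-Y. The RefSeq promoter sequences (GRCh38.p14, 250 bases before to 50 bases after the start site) held 31 of the 35 members. DERL1, DERL3, PDIA3 and SEC24D were not searched. On both strands 3 motifs were looked for: ERSE (CCAAT and CCACG with 9 bases between them), ERSE-II (ATTGG and CCACG with 1 base between them) and UPRE (TGACGTGG). ERSE was found in 7 of the 31 member promoters (22.6%), against 22 of all 27305 promoters (0.0806%). ERSE-II was found in 3 (9.68%) against 15 (0.0549%), and UPRE in 2 (6.45%) against 217 (0.795%). Together 11 members held at least 1 of them, and in HYOU1, which has UPRE and 2 ERSE-II matches, the UPRE overlapped 1 ERSE-II. HSP90B1 held 2 ERSE matches. The members were chosen as genes of this response, several of which are known for these elements, so the excess is a description of the set.

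The stretches below show the matches in 9 of these 11 members, so that they can be set beside the intensities further on. Those of HSP90B1 and HYOU1, which hold several matches over a longer stretch, are not printed. They are written 5′ to 3′ on the strand of the gene, and capitals mark the fixed letters of the motif. The first 6 hold ERSE, the next 2 ERSE-II and the last UPRE. They lie at chr9:125241379-125241421 (HSPA5, minus strand), chr22:28800591-28800633 (XBP1, minus), chr22:49918542-49918584 (CRELD2, plus), chr1:236282171-236282208 (ERO1B, minus), chr5:179698766-179698808 (CANX, plus), chr19:12938372-12938414 (CALR, plus), chr16:56932013-56932047 (HERPUD1, plus), chr22:21642102-21642136 (SDF2L1, plus) and chr2:182716120-182716151 (DNAJC10, plus), all in GRCh38.p14 and upstream of the annotated start.
HSPA5: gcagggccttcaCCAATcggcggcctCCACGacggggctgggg
XBP1: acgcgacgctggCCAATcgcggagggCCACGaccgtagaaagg
CRELD2: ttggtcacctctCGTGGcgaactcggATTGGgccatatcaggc
ERO1B: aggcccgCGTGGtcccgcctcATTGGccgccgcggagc
CANX: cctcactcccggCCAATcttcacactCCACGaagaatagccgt
CALR: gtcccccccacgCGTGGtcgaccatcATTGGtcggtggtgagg
HERPUD1: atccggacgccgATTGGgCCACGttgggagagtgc
SDF2L1: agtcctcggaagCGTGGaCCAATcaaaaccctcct
DNAJC10: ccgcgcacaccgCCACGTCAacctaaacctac
In HSPA5, XBP1 and CANX the ERSE reads in the direction of the gene, and in CRELD2, ERO1B and CALR it lies on the opposite strand, as the UPRE of DNAJC10 does. Members with a motif did not share a direction. With CAN, 3 of the 11 were higher and 1 was lower (median log2 difference 0.46), and of the 20 members searched without a motif 12 were higher and 4 lower (median 0.78). With OA the counts were 5 higher and 2 lower of 11 (median 0.16), and 9 higher and 5 lower of 20 (median 0.46). Over all genes compared, 27.5% were higher and 34.1% lower with CAN, and 28.1% higher and 28.8% lower with OA. Whether the members with and without a motif differ was not tested.

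Of the sensors and XBP1, the transcripts of ATF6 and EIF2AK3 were higher with both agents and that of XBP1 with cantharidin. EIF2AK3, the kinase PERK, was at a scaled intensity of 111 in control, 455 in CAN and 863 in OA. These are differences of 2.04 on the log2 scale (4.11-fold, spot noise SD 0.23) and 2.96 (7.79-fold, spot noise SD 0.20), so the OA array was the highest and the control array the lowest. ATF6, the membrane-bound transcription factor, was at 3432 in control, 8174 in CAN and 11642 in OA. Its log2 difference was 1.25 with CAN (2.38-fold) and 1.76 with OA (3.39-fold), in the same order of arrays.

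XBP1, whose product drives chaperone and ERAD genes, was at 5384 in control, 26749.6 in CAN and 6009 in OA. CAN stood apart from both other arrays, with a log2 difference of 2.31 from control (4.97-fold), while OA differed from control by 0.16 (1.12-fold). XBP1 is 1 of 3 members measured by 10 spots per array, and those spots had an SD of 0.070 in control, 0.049 in CAN and 0.034 in OA on the log2 scale. Which XBP1 splice forms the probe detects is not known here, and splicing was not analysed. ERN1, the kinase and RNase that splices it, was dim, at 70.8 in control and 71.1 in CAN. In OA it was at 55.4 and not well above background, which gives at least 1.28-fold lower than control. That is -0.36 on the log2 scale, within the spot noise SD of 0.41. Without scaling it was -0.10, so the bound is not firm.

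The chaperones of the HSP70 and HSP90 system had 4 of 7 members (57.1%) higher with CAN and 6 of 7 (85.7%) higher with OA, beside 27.5% and 28.1% of all genes, and none was lower with either agent, except that HYOU1 passed 1.5-fold lower in OA with scaling to the median (-0.68). HSPA5, the ER HSP70 known as BiP, was at 4132 in control, 26515 in CAN and 8671 in OA. The log2 difference was 2.68 with CAN (6.42-fold, spot noise SD 0.092), the largest among the members for this agent, and 1.07 with OA (2.10-fold). DNAJC3, a co-chaperone of BiP known as P58IPK, was at 401 in control, 2430.0 in CAN and 2476 in OA. Both treated arrays were about equally far above control, by 2.60 (6.07-fold) and 2.63 (6.18-fold) on the log2 scale.

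The J-domain partners DNAJB9 and DNAJB11 were also higher with both agents, and the OA array held the highest value of each. DNAJB9, or ERdj4, was at 2549.6 in control, 4096 in CAN and 6119.9 in OA, which is 1.61-fold and 2.40-fold above control. DNAJB11, or ERdj3, was at 9416, 16387 and 24371, or 1.74-fold and 2.59-fold. SDF2L1, which acts in a complex with ERdj3 and whose promoter holds the ERSE-II shown above, had the same order of arrays. It was at 22347 in control, 30823 in CAN and 40807 in OA, and only the OA difference of 0.87 on the log2 scale (1.83-fold) passed 1.5-fold.

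HSP90B1, the ER HSP90 known as GRP94, and HYOU1, a nucleotide exchange factor of BiP, moved less. HSP90B1 was at 39523 in control, 52758 in CAN and 62803 in OA, with log2 differences of 0.42 and 0.67 (1.59-fold). Its other probe was at 3628, 4251 and 3567, so that probe had no such difference in OA (-0.02). HYOU1 was at 1273 in control, 1759.9 in CAN and 864 in OA. It was thus above control in CAN (0.47) and below it in OA (-0.56), both within 1.5-fold.

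The lectin chaperones calnexin (CANX) and calreticulin (CALR), which hold glycoproteins while they fold, were not higher with either agent, although an ERSE lies in both promoters as printed above. CALR was at 145446 in control, 138242 in CAN and 161725 in OA, within 0.23 on the log2 scale of each other. CANX was at 1027 in control, 1052 in CAN and 576 in OA, and the OA array was lower by 1.78-fold. The second CANX probe was at 256, 187 and 137, and was also lowest in OA, with a log2 difference of -0.91 from control.

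Of the 8 disulphide oxidoreductases, with CAN 2 were higher (25%) and 3 lower (37.5%), close to the 27.5% and 34.1% of all genes, with a median log2 difference of -0.38. With OA 1 was higher (12.5%) and 5 were lower (62.5%), beside 28.1% and 28.8% of all genes, with a median of -0.99. TXNDC5, the thioredoxin-domain protein ERp46, was at 45481 in control, 21811 in CAN and 8710.3 in OA, which is 2.09-fold and 5.22-fold lower. Its second probe was at 4491, 2768 and 2020.2, in the same order with smaller differences (-0.70 and -1.15). PDIA5 was at 3797 in control, 1799 in CAN and 1203 in OA, or 2.11-fold and 3.16-fold lower. Its second probe, at 419.6, 169.9 and 94.8, was also lower on both treated arrays. PDIA6, the protein disulphide isomerase known as P5, was at 9372, 6450.4 and 4276. It was 1.45-fold lower with CAN, short of the threshold, and 2.19-fold lower with OA.

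The probes of DNAJC10, the ER disulphide reductase ERdj5, differed in OA. The brighter probe was at 1859 in control, 1092 in CAN and 739 in OA, or 1.70-fold and 2.52-fold lower. The other was at 977, 413 and 1006, lower with CAN (-1.24) and level with control in OA (0.04). PDIA3, the ERp57 isomerase that works with calnexin and calreticulin, was at 15894, 19676 and 15114 and within 1.5-fold in every comparison on both of its probes.

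For PDIA4, ERO1A and ERO1B the differences from control had opposite signs with CAN and OA. PDIA4, or ERp72, was at 7594 in control, 15889 in CAN and 4234 in OA. Control lay between the treated arrays, with CAN 2.09-fold higher and OA 1.79-fold lower. ERO1A, the oxidase that recharges protein disulphide isomerase, was at 2474 in control, 4862 in CAN and 1772 in OA on a probe of 10 spots. CAN was 1.97-fold higher and OA 1.40-fold lower, which is short of the threshold. Its paralogue ERO1B was the only oxidoreductase among the members that was higher with OA, at 179.8 in control, 154 in CAN and 593 in OA. OA was thus 3.30-fold above control (log2 difference 1.72), and CAN was within 1.5-fold (-0.22).

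**Figure D3:**
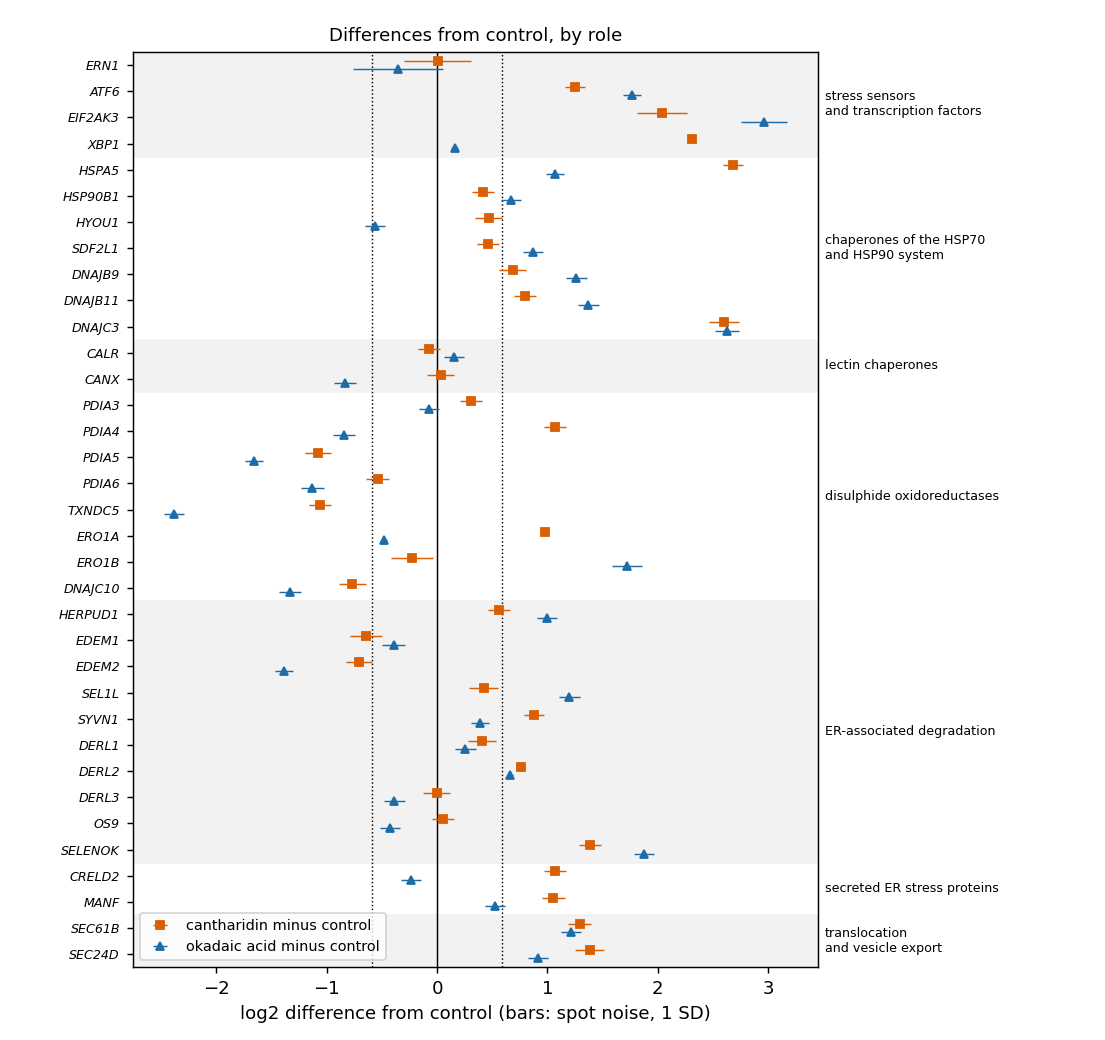
Log2 difference of scaled intensity from control for the 35 members with CAN and with OA, grouped by role; bars are 1 SD of spot noise within arrays and do not cover the spread between cultures, and dotted lines mark 1.5-fold. Of the HSP70 and HSP90 chaperones all but HYOU1 with OA (-0.56) lie to the right, and PDIA5, PDIA6, TXNDC5 and DNAJC10 lie to the left.

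ERAD takes misfolded proteins out of the ER to the proteasome, and its 10 members were mixed. With CAN 3 were higher (30%, beside 27.5% of all genes) and 2 lower (20%, beside 34.1%), and with OA 4 were higher (40%, beside 28.1%) and 1 lower (10%, beside 28.8%). SELENOK, an ER membrane selenoprotein, was at 19332 in control, 50626 in CAN and 71027 in OA. Those are 2.62-fold and 3.67-fold above control. HERPUD1, the membrane scaffold that is itself an ER stress target and whose promoter holds ERSE-II, was at 45802, 67724 and 91554. The OA array was the highest at 2.00-fold above control, and CAN at 1.48-fold was just short of the threshold.

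The ubiquitin ligase SYVN1 (HRD1) and its partner SEL1L differed in which agent passed 1.5-fold. SYVN1 was at 5987 in control, 10984 in CAN and 7832 in OA, or 1.83-fold and 1.31-fold higher. SEL1L was at 716, 959 and 1643 on its brightest probe, or 1.34-fold and 2.29-fold higher. The other SEL1L probes were dim. One was at 85.4, 84.5 and 107 and within 1.5-fold, and the other was well above background in CAN alone, at least 1.92-fold higher there than in control.

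The derlins, membrane proteins of the retrotranslocation step, had 1 of 3 members called. DERL2, on a probe of 10 spots, was at 5805 in control, 9851 in CAN and 9178 in OA, or 1.70-fold and 1.58-fold higher, the latter short of 1.5-fold with scaling to the median (0.54 on the log2 scale). DERL1 was at 2200.4, 2917 and 2630.3, and DERL3 at 3200, 3191 and 2446, all within 1.5-fold. A dim second DERL3 probe was at least 1.84-fold lower in CAN than in control, where it was at 44.5.

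Of the 3 members that mark or recognise glycoproteins for ERAD (EDEM1, EDEM2 and OS9), none was higher. EDEM2, which starts mannose trimming, was at 2561 in control, 1571 in CAN and 978 in OA, or 1.63-fold and 2.62-fold lower. EDEM1 was at 529, 339 and 403, lower by 1.56-fold with CAN and by 1.31-fold with OA. The CAN call was lost with normexp background correction (-0.39 on the log2 scale). The lectin OS9 was at 27393, 28388 and 20443, with control and CAN close together and OA 1.34-fold below control.

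Both secreted ER stress proteins were higher with CAN. CRELD2 was at 11287 in control, 23633 in CAN and 9587 in OA, so CAN was 2.09-fold above control and OA slightly below it (-0.24). MANF, a protein that binds BiP and is released on ER stress, was at 39056, 81152 and 56307. CAN was 2.08-fold and OA 1.44-fold above control, the latter under the threshold.

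The members of translocation and export were higher with both agents. SEC61B, a subunit of the channel through which proteins enter the ER, was at 28552 in control, 69858 in CAN and 66199.8 in OA, or 2.45-fold and 2.32-fold higher. SEC24D, a cargo-binding subunit of the COPII vesicle coat, was at 969, 2525 and 1829, or 2.61-fold and 1.89-fold higher.

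Set directly against each other, okadaic acid had 3 members higher than cantharidin (8.57%) and 10 lower (28.6%), where 29.5% of all 16200 genes were higher and 22.3% lower. The members' median log2 difference was -0.38, beside 0.13 for all genes. XBP1 was lower in OA by 4.45-fold, PDIA4 by 3.75-fold, HSPA5 by 3.06-fold, ERO1A by 2.74-fold, TXNDC5 by 2.50-fold, CRELD2 by 2.47-fold and HYOU1 by 2.04-fold. CANX, EDEM2 and PDIA6 were also lower, between 1.51-fold and 1.83-fold. Higher in OA were ERO1B by 3.85-fold, EIF2AK3 by 1.90-fold and SEL1L by 1.71-fold. These folds are of the representing probes. A dim SEL1L probe was at least 1.38-fold lower in OA, and another was within 1.5-fold (0.34 on the log2 scale). The second probes of TXNDC5 (-0.45) and CANX (-0.45) were lower in OA but within 1.5-fold. The counts depended on the scaling between arrays: without any scaling 12 members were higher and 7 lower, and with scaling to the median 3 were higher and 16 lower. Of the 13 calls, 9 stayed past 1.5-fold under all 10 alternatives tried, namely those of XBP1, PDIA4, HSPA5, ERO1A, TXNDC5, CRELD2, HYOU1, ERO1B and EIF2AK3. Alternatives that only treat dim probes otherwise could not change these, as their representing probes were well above background on all arrays.

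**Figure D4:**
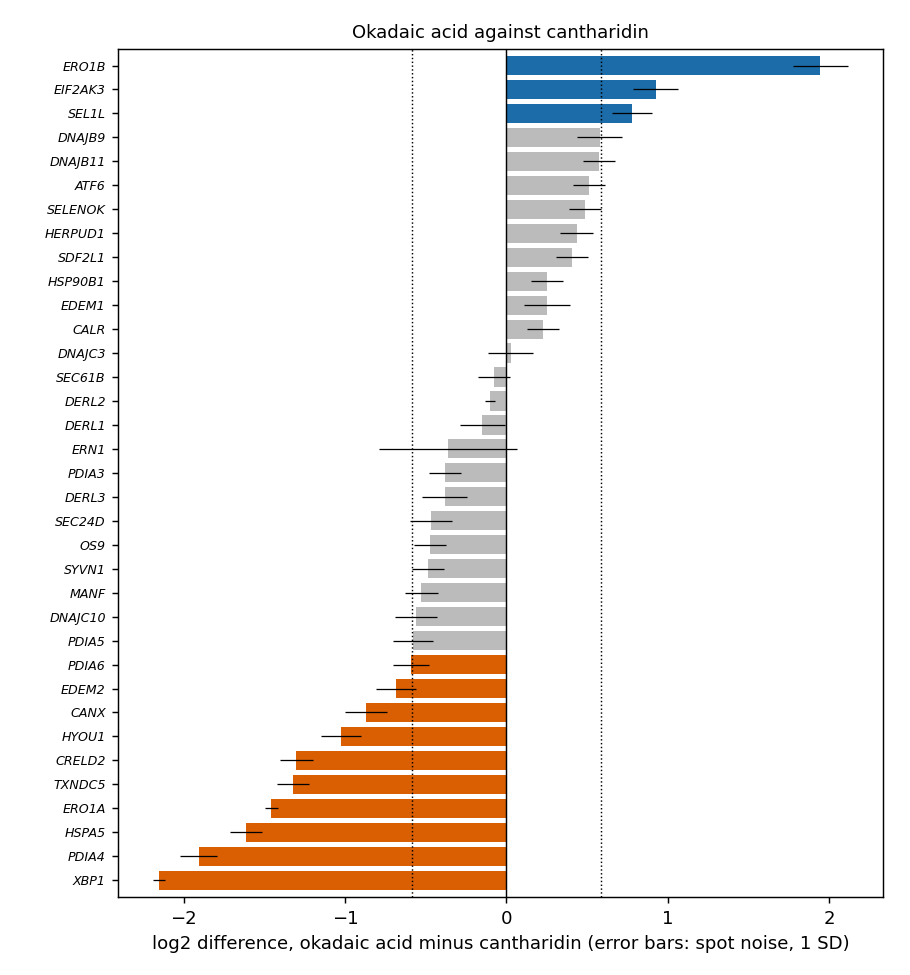
Log2 difference of scaled intensity, OA minus CAN, for the 35 members, 1 bar per gene in order of the difference (1 array per group). Bars past 1.5-fold are coloured by direction, and dotted lines mark 1.5-fold. Error bars are 1 SD of spot noise within arrays and do not cover the spread between cultures. XBP1 (-2.15), PDIA4 (-1.91), HSPA5 (-1.61) and ERO1A (-1.46) lie furthest to the left, and ERO1B (1.94) furthest to the right.

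Other genes of the ER stress response and of the secretory pathway were counted from 6 lists that hold no member. The first held 10 genes: 9 of the ATF4-CHOP branch, which is downstream of PERK and other eIF2α kinases, and ERN2, a paralogue of the sensor IRE1. In it 9 were higher and 1 lower with CAN (median log2 difference 2.69), and 7 were higher and 2 lower with OA (median 1.72). Left out after its value was seen, ERN2 accounts for 1 lower gene with each agent, and the medians of the other 9 were 2.72 and 2.40. Over all genes compared, 27.5% were higher and 34.1% lower with CAN (median -0.16), and 28.1% higher and 28.8% lower with OA (median 0.01). ATF4 itself was at 48802 in control, 135669 in CAN and 83006 in OA, or 2.78-fold and 1.70-fold higher. CHAC1, a glutathione-degrading enzyme, was at 1792, 69822 and 65180.2, or 39.0-fold and 36.4-fold higher. Its other probe had smaller differences, 3.57 with CAN and 3.06 with OA on the log2 scale. TRIB3, a pseudokinase, was at 3745, 93093 and 24557, or 24.9-fold and 6.56-fold higher.

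PPP1R15A, the GADD34 subunit that directs a phosphatase to eIF2α, was at 3272 in control, 21541 in CAN and 17266 in OA, which is 6.58-fold and 5.28-fold higher. DDIT3, the transcription factor CHOP, went in opposite directions, at 9122, 31408 and 5986. It was 3.44-fold higher with CAN and 1.52-fold lower with OA, and the latter call was lost in 5 of 10 alternatives. Its only probe was well above background on all arrays. So the alternatives for dim probes and the median over a gene's probes could not change that call. ERN2 was lower with both, by 2.77-fold and 1.91-fold. ATF3, a transcription factor named here after its values were seen, was 84.9-fold and 12.8-fold higher on its representing probe. Its 4 probes disagreed, with log2 differences of -0.15 to 6.41 with CAN and -0.47 to 3.67 with OA.

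The other 5 lists held genes of both directions with both agents, and their counts are to be read against the shares of all genes given above, 27.5% higher and 34.1% lower with CAN and 28.1% and 28.8% with OA. Of 11 transmembrane factors, their proteases and NF-Y subunits, 3 were higher and 5 lower with CAN, and 2 higher and 6 lower with OA. Within it the site-1 protease MBTPS1, which cuts ATF6, was at 14473, 5191 and 4707, or 2.79-fold and 3.07-fold lower. Of the NF-Y subunits, NFYC was 3.08-fold and 2.55-fold higher, and NFYB was lower, by 8.41-fold and 1.94-fold. The other NFYC probes had smaller differences, 0.99 to 1.25 on the log2 scale with CAN and 0.30 to 0.81 with OA. NFYA, named after its values were seen, was 5.11-fold lower with CAN and within 1.5-fold with OA (-0.25) on its representing probe, while its other probe was at 0.48 and 0.76. CREB3, an ATF6-like membrane factor, was 4.06-fold and 4.12-fold higher.

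Of 20 further chaperones and oxidoreductases compared, 7 were higher and 5 lower with CAN, and 6 higher and 7 lower with OA. The co-chaperone DNAJC25 was 6.25-fold and 3.40-fold higher, and the oxidoreductase TMX3 was lower, by 6.09-fold and 4.18-fold. QSOX1 was 2.74-fold higher and PRDX4 3.43-fold lower with CAN, and FKBP14 was 2.97-fold higher and SIL1 2.68-fold lower with OA. Of 25 genes of translocation, signal peptidase and glycosylation, 7 (28%) were higher with either agent, close to the share of all genes, and 6 (24%) were lower with CAN and 9 (36%) with OA. The translocon subunit SEC61A1 was at 750.2 in control, 2521 in CAN and 1050.2 in OA, and its 3.36-fold difference with CAN was beside a 3.86-fold one for the signal peptidase subunit SPCS3, which was also 2.52-fold higher with OA. SRP9 and DDOST were lower with CAN, by 3.74-fold and 2.68-fold, and GANAB and STT3A with OA, by 3.44-fold and 2.75-fold, while SRP54 was 2.85-fold higher with OA.

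Of 17 further ERAD genes, 8 were higher and 4 lower with CAN, and 5 higher and 7 lower with OA. SELENOS, the other ERAD selenoprotein measured, was 3.31-fold and 2.51-fold higher, and ERLIN1 and ERLIN2 were lower with both agents, the latter by 3.48-fold and 7.33-fold on its representing probe. Another ERLIN2 probe that was well above background on all arrays was within 1.5-fold of control with both agents (-0.29 and -0.22 on the log2 scale). AUP1 was 2.88-fold higher with CAN and ERLEC1 2.26-fold higher with OA. Of 20 genes of ER to Golgi transport, 11 were higher and 2 lower with CAN, and 7 higher and 3 lower with OA. SEC24A, a COPII subunit like the member SEC24D, was at 455 in control, 6102 in CAN and 6126 in OA, or 13.4-fold and 13.5-fold higher. Its other probes had smaller differences, 2.01 and 3.41 on the log2 scale with CAN and 3.12 and 2.89 with OA. The cargo receptor TMED10 was lower with both, by 8.33-fold and 5.64-fold. SEC16A was 6.84-fold higher with CAN, and with OA SAR1B was 4.27-fold higher and KDELR1 1.90-fold lower.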

How the data were processed

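The authors deposited the scanner output of 3 single-colour Agilent arrays (Feature Extraction 11.0.1.1, annotation build hg19 per the labels and file headers) as spot intensity values. Per the file headers, the processed intensity was already background-subtracted and was not scaled between arrays. A second deposited table holds log2 values of 30923 probes, normalized in a way that is not stated. It served as an alternative, since each of its columns followed the array of the same label most closely (r from 0.998 to 0.999 across probes). The study called genes on these arrays at 1.5-fold, the threshold used here, and how it normalized them is not given in the sources used here.

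Groups were taken from the sample titles. Spots with outlier flags were left out, log2 of the processed intensity was averaged per probe, and each array's 75th percentile (784 for control, 713 for CAN and 936 for OA) was subtracted. Accessions were matched to RefSeq names without their version, which named 25705 of 34127 transcript probes. Where a gene had several probes, the one brightest on average over the 3 arrays stood for it. The probe annotation and the promoter table are of different builds, so promoters were joined by symbol, and no probe position is given. A probe not well above background on 1 array gives a bound ("at least"), from the higher of its own signal and the lowest signal well above background there. Spot noise came from probes with 10 spots (978 to 991 per array) in 8 bins of signal. The calls were also run on arrays simulated from the control signals, with some of the brighter probes moved far past 1.5-fold. That run does not cover changes near 1.5-fold or in dim probes.

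With 1 array per group no replicate error, p-value or batch effect could be had, and array and treatment cannot be told apart. Python 3.11.15, numpy 2.4.6, pandas 2.3.3, matplotlib 3.10.9, R 4.3.3 and limma 3.58.1 were used. The alternatives were 4 other scalings, normexp background correction (offset 50), 2 other filters on dim probes, dim signals set to the array's floor, the median over a gene's probes, the deposited table and a 2-fold threshold. Members, roles and lists were chosen with earlier results of these data known. In each further list the genes named are ATF4, DDIT3 and PPP1R15A, and up to 2 per agent and direction with the largest difference among genes well above background on both arrays whose probes moved the same way. 1 gene of the further lists is not reported here. Protein sequences were not used here.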

Additional observations from a re-analysis of the deposited data

Results flagged for a closer look

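Among the members and the further ER lists, 6 genes were at least 1.5-fold higher with CAN and at least 1.5-fold lower with OA. The share of all genes with such opposite calls was not computed, so this count only describes these genes. Singly, 27.5% of all genes compared were higher with CAN and 28.8% were lower with OA. The log2 differences from control were 1.07 with CAN and -0.84 with OA for PDIA4, 1.78 and -0.61 for DDIT3, 0.69 and -0.73 for RPN1 (a subunit of the oligosaccharyltransferase), 0.97 and -0.96 for FAF2 (an ERAD factor that recruits VCP), 0.78 and -0.71 for UBXN4 (likewise) and 0.74 and -0.76 for SURF4 (a cargo receptor of ER export). Each rests on 1 array per group, so the difference between the agents was not tested. The opposite calls of PDIA4 and FAF2 stood under all 10 alternatives, though the settings for dim probes and the median over probes could not change them. That of DDIT3 in OA was lost in 5, those of RPN1 with both agents and of UBXN4 in OA were lost without scaling, and that of SURF4 in OA was lost without scaling and over both of its probes, the second of which was at 0.22.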

How the results depend on the processing

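With CAN 19 of the 21 members' calls stood under all 10 alternatives that give a difference. With OA it was 19 of 22, and between the agents 9 of 13. No member's call changed sign. For a probe well above background on all arrays, the filters on dim probes and the floor setting cannot change the difference. For the 27 members on 1 probe the median over probes cannot either. So fewer than 10 of these alternatives could have changed most calls. Lost in at least 1 were DNAJB9 and EDEM1 with CAN, and CANX, DERL2 and HSP90B1 with OA. HERPUD1 and PDIA6 passed 1.5-fold with CAN, and ERO1A, HYOU1, MANF and SYVN1 with OA, in at least 1. The members' median with OA against control was 0.14 with scaling to the median, 0.41 with quantile normalization, 0.51 without scaling and 0.36 in the deposited table, and with CAN it was 0.33 without scaling. Between OA and CAN the median was -0.53 with scaling to the median, 0.013 without scaling and -0.15 over the probes of a gene. There the count of higher members was 6 with quantile normalization and in the deposited table, 12 without scaling and 1 at 2-fold, and that of lower members was 16 with scaling to the median. At 2-fold, 2 members were lower with CAN. Without scaling the median of all genes was -0.30 for CAN, 0.26 for OA and 0.52 between them. Relative to it the members stood at 0.63, 0.25 and -0.51. These equal the main setting by construction, since scaling to a percentile moves all genes of an array by the same amount. The share of higher among the members' calls between OA and CAN was 23.1%, against 63.2% without scaling and 35.3% with quantile normalization; over all genes it was 56.9% and 77.2% without scaling, and with OA against control 49.4% and 62.1%. No paired analysis was possible because each group has 1 array. The number of arrays limits the precision, and only bounds can be given for ERN1 in OA and for 1 further probe each of SEL1L and DERL3, whose signal on some arrays was too dim.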
